A study of Mus musculus with 2 samples.

Results

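The integrated stress response and the unfolded protein response were followed through 44 genes, taken by name from the kinases that sense stress, the transcription factor ATF4 with its targets, the genes of amino acid supply, the chaperones of the endoplasmic reticulum (ER) and ER-associated degradation (ERAD). The microarray holds 37074 gene names. All 44 genes gave a signal well above background on each array, which 20350 genes did in all. The 44 genes had 83 probes, of which 80 passed that mark on each array.

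Both responses turn a shortage of amino acids, glucose or folding capacity into a change of transcription. In the integrated stress response, kinases phosphorylate the translation factor eIF2alpha, which slows protein synthesis in general but lets the *Atf4* mRNA be translated, and ATF4 then drives genes for amino acid synthesis, amino acid import and stress signalling. In the unfolded protein response, the ER membrane sensors PERK, IRE1alpha and ATF6 react to unfolded proteins, and cleaved ATF6 and spliced XBP1 drive the chaperones and the degradation machinery of the ER. Several ER chaperones were first known as proteins induced by glucose starvation, and ER stress accompanies hypertrophy and ischaemia in the heart.

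*Ppp2r5d* encodes the B56delta regulatory subunit of protein phosphatase 2A, and the comparison asks what its knockdown does to gene expression in MCMs, cultured mouse cardiomyocytes. One culture received a negative control siRNA (siRNA-NC) and the other an siRNA against *Ppp2r5d* (siRNA-*Ppp2r5d*), in both cases with Lipofectamine RNAiMAX. Both were grown in DMEM with 2% FBS, both were moved to glucose-free medium 48 h after transfection, and both were collected 64 h after transfection. No culture in glucose was measured, so the level of either response relative to fed cells is not shown here. The MCMs were bought and passaged before use. There was 1 array for each condition, so no difference has a replicate check, no test was run and no p-value is given, and values are described as higher or lower by the stated amount.

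The knockdown was seen in *Ppp2r5d* itself, with an intensity of 4701 for siRNA-NC against 676 for siRNA-*Ppp2r5d*, 6.09-fold lower after scaling. Of 59305 spots that were not controls, 35544 passed the same mark for siRNA-NC and 35174 for siRNA-*Ppp2r5d*. Each array was scaled on the log2 scale by its own 75th percentile, which stood at an intensity of 593 (siRNA-NC) and 519 (siRNA-*Ppp2r5d*), so a gene with equal scaled levels had a lower intensity on the second array. A log2 fold change is the scaled level for siRNA-*Ppp2r5d* minus that for siRNA-NC, averaged over the probes of a gene, and an intensity given for a gene with several probes is their geometric mean. Of 12 cardiomyocyte markers, 5 were well above background on both arrays, 3 on 1 array and 4 on neither, the last being *Myl2*, *Myl7*, *Pln* and *Actn2*. Of the 5, *Actc1* was the brightest, at 6443 and 5268, and *Tnni3* the dimmest, at 45.0 and 34.6. The 3 were *Myh6*, *Mybpc3* and *Ryr2*, at only 14.3, 14.2 and 19.3 for siRNA-*Ppp2r5d*. The lowest signal well above background on that array was 13.5. The label of the cells thus has only limited support from its defining markers. Of the markers of other cells, 6 of 7 for fibroblasts, 4 of 4 for smooth muscle, 3 of 4 for leukocytes and 1 of 4 for endothelium were well above background on both arrays. For this count 1 passing probe of a gene was enough. *Ptprc* of the leukocyte markers passed on 1 of 7 probes and *Tnnt2* of the cardiomyocyte markers on 1 of 3. *Myh11* of the smooth muscle markers passed on 1 of 4, with intensities of only 27.1 and 18.2. For the sums that follow, the brightest probe of each marker was taken, not the mean over its probes, and markers below background were included. Between the arrays, the summed intensity before scaling went from 9119 to 7885 for the cardiomyocyte markers and from 246824 to 226361 for fibroblasts. It went from 141925 to 129727 for smooth muscle, from 2106 to 1529 for leukocytes and from 75.9 to 69.6 for endothelium. *Col1a2* alone gave 147519 of the fibroblast sum for siRNA-NC, and *Acta2* gave 133436 of the smooth muscle sum. These sums hold the lower brightness of the second array, whose 75th percentile was 519 against 593. After scaling, the markers measured on both arrays had median log2 fold changes on both sides of 0. These were -0.10 for cardiomyocytes, -0.0066 for fibroblasts, 0.41 for smooth muscle, 0.13 for leukocytes and -0.23 for endothelium (1 gene). Among the smooth muscle markers *Cnn1* differed most, with a log2 fold change of 2.41. What part such differences have in the values below was not tested. In a bulk sample a change in the number of cells of a type and a change in RNA per cell cannot be told apart.

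No gene of the 44 was 2-fold higher or 2-fold lower in siRNA-*Ppp2r5d*, while among all measured genes 0.885% passed 2-fold upwards and 1.07% downwards. None passed 1.5-fold either, a size at which 3.36% of all genes were higher and 4.65% lower. The ER chaperone and ERAD genes lay on 1 side: all 17 were above 0, from 0.15 to 0.41, with a median of 0.28, although under scaling to spike-in RNA 4 of them were below 0. The 21 genes of the ATF4 arm lay around 0, with 11 above, 10 below and a median of 0.0060, which was below 0 under quantile, cyclic loess and spike-in scaling, in the authors' log2 values and with the brightest probe of each gene. Of all genes 54.1% were above 0, with a median of 0.03. The members furthest below 0 were *Ddit3*, the ATF4 target that encodes CHOP, at -0.54, and *Ern1*, which encodes IRE1alpha, at -0.42.

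At a threshold of 1.2-fold, added after it was seen that no member passed 1.5-fold, 11 of the 44 genes were higher and 2 were lower. These counts became 7 and 1 with normexp correction, 4 and 3 under quantile normalization, cyclic loess and in the authors' log2 values, and 0 and 8 under spike-in scaling. Over all genes the shares were 15.3% higher and 15.9% lower under the scaling that gave 11 and 2. Shares of all genes under the other settings are not given, so the counts there have no such comparison. Spike-in scaling moved every gene by -0.21 on the log2 scale, so its 0 and 8 cannot be set against these shares. Of the 11, 10 were ER chaperones or protein disulfide isomerases, and the other was *Cebpb*. The 2 lower genes were *Ddit3* and *Ern1*. As a scale for these values, repeated spots of a probe had log2 fold changes with a median SD of 0.036 (283 probes), and different probes of a gene had a median SD of 0.12 (7167 genes). Neither holds the spread between cultures.

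**Figure D1:**
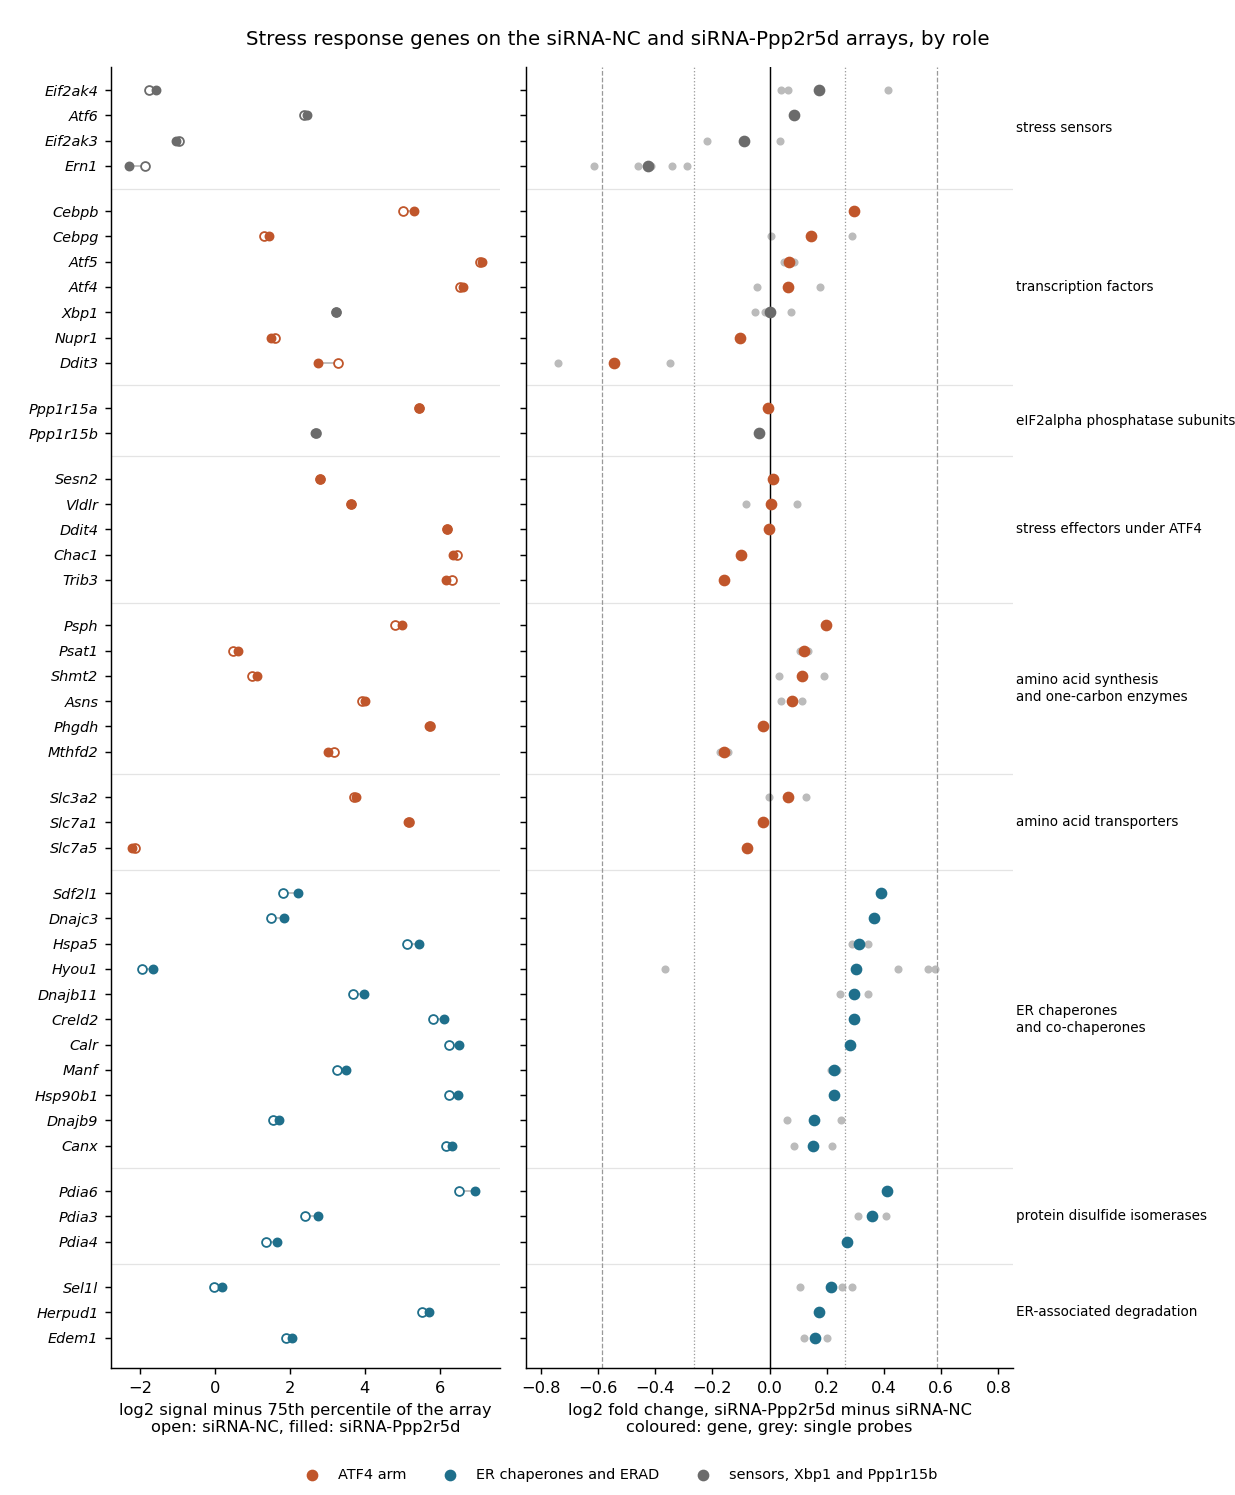
The 44 genes by role. The left panel gives the log2 signal minus the 75th percentile of the array for siRNA-NC (open) and siRNA-*Ppp2r5d* (filled), and the right panel the log2 fold change of each gene (coloured) and of its probes (grey), with dotted lines at 1.2-fold and dashed lines at 1.5-fold. All 17 ER chaperone and ERAD genes sit right of 0 (13 of 17 under spike-in scaling), and *Ddit3* and *Ern1* sit furthest left.

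Among the sensors, *Ern1* differed most. IRE1alpha, its product, is the ER membrane kinase and RNase that splices *Xbp1* mRNA. Its intensity was 160 in siRNA-NC and 105 in siRNA-*Ppp2r5d*, a log2 fold change of -0.42 or 1.34-fold lower. All 5 of its probes were lower, from -0.29 to -0.62. They are spread on chromosome 11 of build mm9 from 106255965 to 106319957, and which exons they lie in was not analysed here. The brightest of them, at chr11:106255965-106256024, had intensities of 1426 and 907, and 8.50% of all genes had a lower value than *Ern1*. When all genes were divided by signal into 4 classes of equal size, *Ern1* fell in the second dimmest, and with normexp background correction its value was -0.19.

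The other sensors were within 0.2 of 0. *Eif2ak4*, the kinase GCN2 that senses uncharged tRNA, had intensities of 175 and 173 and a log2 fold change of 0.17, which came mostly from 1 dim probe at 0.41 beside probes at 0.07 and 0.04. *Eif2ak3*, which encodes PERK, had -0.09 from probes of opposite sign, 0.04 and -0.22. *Atf6*, the sensor that is cut to a transcription factor in the Golgi, had 0.09. The mRNA of the factor spliced by IRE1alpha, *Xbp1*, had 0.0019 over 3 probes between -0.05 and 0.07. Whether these probes separate spliced from unspliced *Xbp1* was not analysed here, nor is cleavage of ATF6 or phosphorylation of PERK seen in mRNA levels.

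Of the transcription factors, *Ddit3* was the lowest member of all 44. Its intensity was 5803 in siRNA-NC and 3483 in siRNA-*Ppp2r5d*, a log2 fold change of -0.54 or 1.46-fold lower. Both of its probes were lower, by different amounts. The probe at chr10:126731579-126731638 (mm9) went from 3173 to 1661, a log2 fold change of -0.74. The probe that spans chr10:126732518-126732821 went from 10614 to 7304, a log2 fold change of -0.35. Of all genes 5.41% had a lower value than *Ddit3*, and under quantile normalization its value was -0.60, past 1.5-fold.

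*Atf4* itself, the factor at the head of the arm, had intensities of 55538 and 50873 and a log2 fold change of 0.07. Its probes were at 0.18 and -0.04, so they did not share a sign. *Atf5*, a relative that is translated under the same control, had 0.07 as well. *Cebpb* and *Cebpg* encode C/EBP proteins that pair with ATF4 on DNA. *Cebpb* was the highest gene of the ATF4 arm, with intensities of 19107 and 20525 and a log2 fold change of 0.30, or 1.23-fold higher, from 1 probe. *Cebpg* had 0.15, with probes at 0.29 and 0.0037. *Nupr1*, a stress-induced chromatin protein, had -0.10 on both of its probes. It was the next lowest factor after *Ddit3*, and the 7 transcription factors had a median of 0.07, which was -0.07 under quantile normalization and -0.09 under cyclic loess.

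The stress effectors below ATF4 had a median of -0.0030 with 2 of 5 genes above 0, and a median of -0.15 with none above 0 under quantile normalization and cyclic loess (-0.21 and none under spike-in scaling). *Trib3*, a pseudokinase that is induced with CHOP, was the lowest of these 5 genes, with intensities of 47672 and 37346 and a log2 fold change of -0.16, or -0.32 under quantile normalization. *Chac1*, which degrades glutathione, had -0.10, or -0.24 under quantile normalization. *Sesn2*, the highest, and *Ddit4*, both inhibitors of mTORC1 signalling, had 0.013 and -0.0030, and *Vldlr*, a lipoprotein receptor, had 0.0060. *Sesn2* had intensities of 4118 and 3637. The subunits that bring a phosphatase to eIF2alpha were also near 0: *Ppp1r15a*, the stress-induced one, had intensities of 26056 and 22699 and a log2 fold change of -0.0066, and *Ppp1r15b*, the constitutive one, had 3853 and 3285 and -0.04.

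The genes of amino acid supply lay on both sides of 0, but all 9 were below 0 under spike-in scaling, and the 3 transporters also under quantile normalization and cyclic loess. Among the 6 enzymes, 4 were above 0 and 2 below, with a median of 0.09 (-0.12 under spike-in scaling). *Psph*, the last enzyme of serine synthesis, was the highest, with intensities of 16512 and 16579 and a log2 fold change of 0.20. *Psat1* and *Phgdh*, the other enzymes of that pathway, had 0.12 and -0.02. The 3 enzymes of serine synthesis thus did not share a sign. *Shmt2* and *Mthfd2* act in mitochondrial one-carbon metabolism and had opposite signs, 0.11 and -0.16. For *Mthfd2*, the lowest enzyme, the intensities were 5384 and 4221, and both probes were lower, at -0.17 and -0.15. *Asns*, asparagine synthetase and a standard readout of ATF4, had 9033 and 8340 and a log2 fold change of 0.08. Of the transporters, *Slc3a2*, the heavy chain of the leucine exchanger, was the highest at 0.07, from intensities of 7730 and 7077. *Slc7a5*, its light chain, was the lowest at -0.08, from 133 and 111. *Slc7a1*, the carrier of arginine and lysine, had -0.02.

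The 11 ER chaperones and co-chaperones were all above 0 with a median of 0.29, and 7 were at least 1.2-fold higher. Under quantile normalization and cyclic loess the median was 0.16 and 3 passed 1.2-fold, and under spike-in scaling none passed it and *Canx* and *Dnajb9* were below 0. *Hspa5* encodes BiP, the main chaperone of the ER lumen. Its 3 probes went from 63270 to 67642, from 9501 to 10264 and from 15052 to 16741, which are log2 fold changes of 0.29, 0.30 and 0.35. Their mean was 0.31, or 1.24-fold higher. The probes of *Hspa5* thus differed from each other by less than the median spread between probes of a gene.

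The other 10 genes of this role had values from 0.15 to 0.39. *Sdf2l1*, part of a BiP and DnaJ complex, was the highest of the 11, with intensities of 2082 and 2389 and a log2 fold change of 0.39. *Dnajc3*, a co-chaperone that also holds back PERK, had 1654 and 1866 and 0.37. *Dnajb11* had 0.29, and *Dnajb9*, a repressor of IRE1alpha, had 0.15 from probes at 0.25 and 0.06. *Manf* and *Creld2*, secreted proteins of the stressed ER, had 0.23 and 0.29. *Hsp90b1*, the HSP90 of the ER lumen, had 0.23. The lectin chaperones that hold glycoproteins were *Calr*, with intensities of 45036 and 47847 and 0.28, and *Canx*, the lowest of the 11, with 42599 and 41428 and 0.15.

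*Hyou1*, a large relative of BiP that exchanges its nucleotide, was the only member whose probes differed in sign by more than 0.5. Its mean was 0.30, from intensities of 153 and 165. The probe at chr9:44193855-44193914 (mm9) went from 104 to 70.6, a log2 fold change of -0.37. The probes further along the gene, from 44197162 to 44199413, had 0.55, 0.58 and 0.45. Without the first probe the mean was 0.53. All were dim, and *Hyou1* was in the second dimmest class of genes by signal.

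The 3 protein disulfide isomerases among the members had the highest median of the roles. Such enzymes form and rearrange the disulfide bonds of secreted proteins. *P4hb*, a disulfide isomerase that is not among the members, was below 0 and is given with the other ER genes. *Pdia6* was the highest of all 44 members, with intensities of 54665 and 63627 and a log2 fold change of 0.41, or 1.33-fold higher, from 1 probe. *Pdia3*, which serves the lectin chaperones, had 0.36 with probes at 0.31 and 0.41. *Pdia4* was the lowest of the 3, with 1531 and 1616 and 0.27. The median of this role was 0.36, and all 3 were above 0 under every scaling tried.

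The ERAD genes were higher by less. *Sel1l*, the adaptor of the ubiquitin ligase in the ER membrane, had intensities of 576 and 586 and a log2 fold change of 0.22. *Herpud1*, another part of that complex, had 0.17 on both of its probes. *Edem1*, which trims mannose from misfolded glycoproteins, was the lowest with 2195 and 2147 and 0.16. None of the 3 reached 1.2-fold, and *Herpud1* and *Edem1* were below 0 under spike-in scaling.

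Over the ER arm, 30 of 31 probes were above 0, and the exception was the probe of *Hyou1* given above. Of its 10 genes with more than 1 measured probe, 9 had all probes above 0. In the ATF4 arm 18 of 34 probes were above 0. The share of all probes above 0 is not given, so these counts have no such comparison. They also depend on the scaling. Spike-in scaling, which moved every gene by -0.21, lowers the counts of both arms. In the ER arm it puts probes of *Herpud1*, *Edem1*, *Dnajb9*, *Canx* and *Sel1l* below 0 as well. The ER median was higher than the ATF4 median by 0.27 on the log2 scale, a ratio of 1.21. Scaling by 1 factor for each array cancels in this difference, and with methods that do more than that it was 0.26 under quantile normalization, 0.28 under cyclic loess and 0.24 with normexp correction. Of the ER genes 6 were above *Cebpb*, the highest gene of the ATF4 arm, and 19 of the 21 genes of the ATF4 arm were below *Canx*, the lowest ER gene. As the arms were drawn up with earlier results of these data known and there is 1 array per condition, this is a description of the 2 arrays.

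Signal strength moved with the fold change. In the brightest of the 4 classes, 72.4% of 5088 genes were above 0 and the median was 0.11, against 0.03 over all genes. The arms were alike in this respect, since 13 of 17 ER genes and 16 of 21 genes of the ATF4 arm lay in that class. All 17 ER genes and 5 genes of the ATF4 arm were above its median, and 13 ER genes and 1 gene of the ATF4 arm were above its 75th percentile of 0.21. At least 1.2-fold higher were 13.9% of that class. Cyclic loess, which removes a trend with signal, left the ER median at 0.19 and put the ATF4 median at -0.09.

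**Figure D2:**
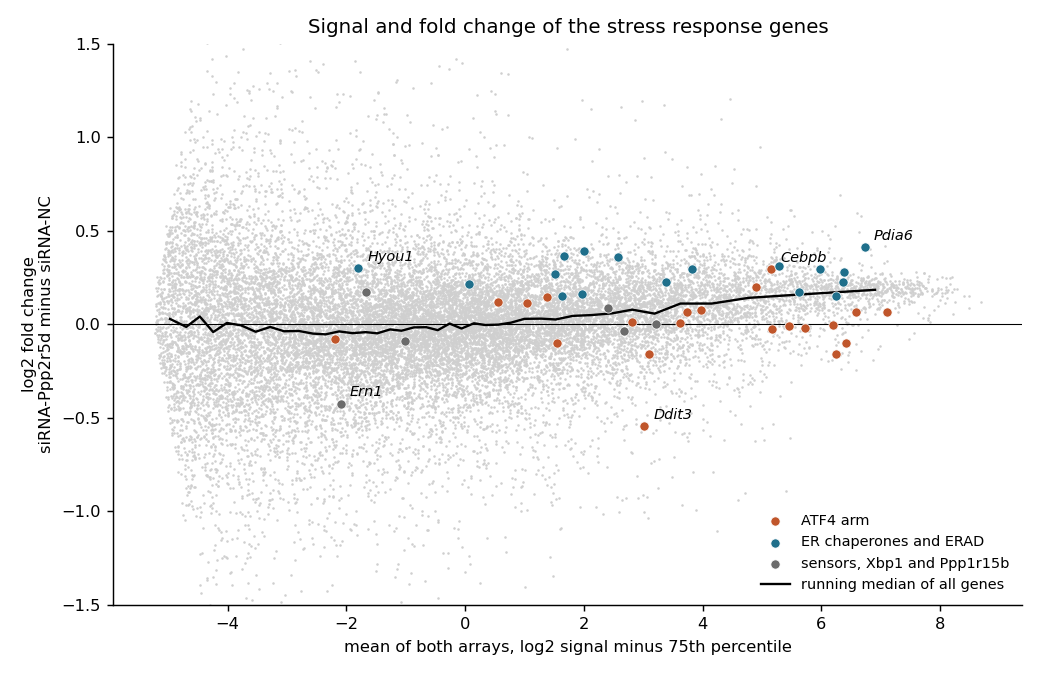
Log2 fold change against mean scaled log2 signal of both arrays for all genes (grey; 89 genes beyond 1.5 on the log2 scale are not drawn), with the members coloured by arm and the running median of all genes as a black line. The line rises over the upper range of signal, and all 17 ER genes lie at 0.15 or higher, with 4 of them below 0 under spike-in scaling.

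**Figure D3:**
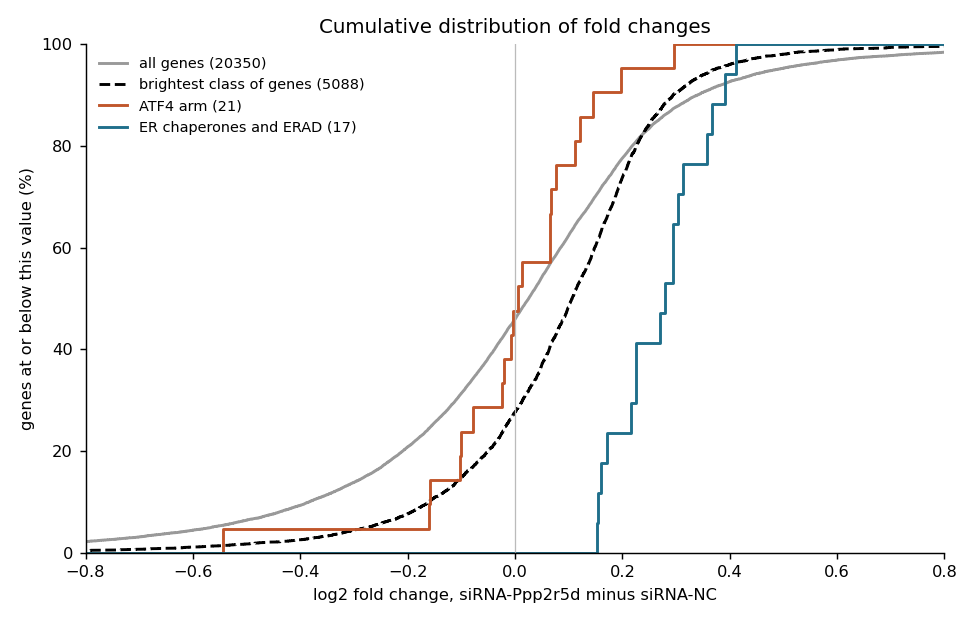
Share of genes at or below each log2 fold change, in percent, for all genes, the brightest class, the ATF4 arm and the ER arm. The ER curve starts at 0.15 and ends at 0.41 (4 of its genes were below 0 under spike-in scaling), while the ATF4 curve crosses its middle at 0.0060, left of the brightest class.

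Scaling to the spike-in RNA moved the median of all genes by -0.21. On that scale the ER median was 0.07 and the ATF4 median -0.21, 13 of 17 ER genes and 1 of 21 genes of the ATF4 arm were above 0, and *Ddit3* and *Ern1* had -0.76 and -0.64. Since this scaling moves every gene alike, it leaves the order of the genes as it was. Under the other 9 alternatives of scaling, background, filter or probe, all 17 were above 0, *Canx* by only 0.0045 under quantile normalization, where, and likewise in the deposited log2 table, 16 of 17 were above the median of all genes.

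**Figure D4:**
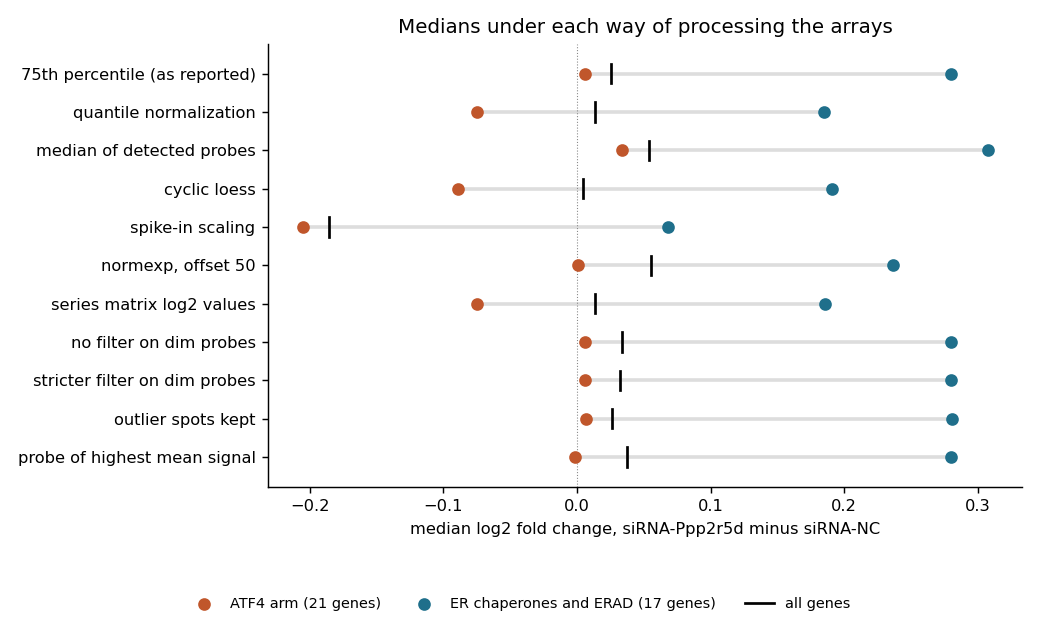
Median log2 fold change of the ATF4 arm, the ER arm and all genes (black bars) under each way of processing the arrays. The ER median lies between 0.07 and 0.31 and right of the ATF4 median in every row, and the ATF4 median changes sign between rows.

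The promoters of the members were searched for the elements that the 2 responses are known to use. The sequences are of RefSeq, build GRCm38.p6, from 250 bases before to 50 bases after the start of the gene, and 39 of the 44 genes had an entry. The ER stress response element (ERSE, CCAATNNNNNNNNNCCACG), bound by ATF6 together with NF-Y, was matched on either strand. It was present in 7 of the 15 ER genes with an entry, in 0 of 20 genes of the ATF4 arm and in 0.137% of 27025 genes. The 7 genes were *Hspa5*, *Hsp90b1*, *Dnajc3*, *Pdia6*, *Calr*, *Canx* and *Creld2*. They had log2 fold changes from 0.15 to 0.41 with a median of 0.29, and the 8 ER genes without it had 0.15 to 0.39 with a median of 0.24. This order of the medians turned under quantile normalization, with 0.15 against 0.21, and under cyclic loess, with 0.16 against 0.21. Among 12 measured genes outside the list that hold the element, 6 were above 0 and 6 below, with a median of 0.02. A match is a run of letters and says nothing of binding in these cells.

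The matches are shown because 7 of the ER genes share this element. Each stretch of 60 bases is 5′ to 3′ on the strand of its gene and ends before the start, with the element in capitals. Where the capitals begin with CGTGG, the element lies on the opposite strand. On the plus strand these are *Hspa5* at chr2:34772005-34772064, *Pdia6* at chr12:17266471-17266530, *Dnajc3* at chr14:118937807-118937866 and *Creld2* at chr15:88819500-88819559. On the minus strand they are *Calr* at chr8:84847054-84847113, *Canx* at chr11:50325779-50325838 and *Hsp90b1*, with 2 matches, at chr10:86705617-86705676 and chr10:86705512-86705571. The element began 65 bases before the start in *Hspa5*, 98 in *Pdia6*, 105 in *Dnajc3*, 126 in *Creld2*, 162 in *Calr*, and 145 in *Canx*. In *Hsp90b1* the first match began 212 bases before the start and the second ended 89 bases before it.
Hspa5: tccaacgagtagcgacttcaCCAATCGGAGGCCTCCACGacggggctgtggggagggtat
Pdia6: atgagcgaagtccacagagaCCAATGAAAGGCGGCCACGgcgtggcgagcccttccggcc
Dnajc3: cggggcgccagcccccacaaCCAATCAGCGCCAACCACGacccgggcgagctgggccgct
Creld2: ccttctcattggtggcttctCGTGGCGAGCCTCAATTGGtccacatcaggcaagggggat
Calr: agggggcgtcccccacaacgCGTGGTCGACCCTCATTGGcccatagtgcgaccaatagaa
Canx: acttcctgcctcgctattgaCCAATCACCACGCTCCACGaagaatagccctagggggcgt
Hsp90b1, first: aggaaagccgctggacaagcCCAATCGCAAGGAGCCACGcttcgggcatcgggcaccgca
Hsp90b1, second: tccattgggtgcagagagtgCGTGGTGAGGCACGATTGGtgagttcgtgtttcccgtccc

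A shorter form, ERSE-II (ATTGG and CCACG with 1 base between them, on either strand), was present in *Herpud1* and *Dnajb11* and in 0.0444% of genes. In *Dnajb11* it lies after the start and is not printed. The element of XBP1 (UPRE, TGACGTGG, on either strand) was in no member and in 0.714% of genes. In *Herpud1*, the stretch is chr8:94386353-94386412 on the plus strand and the element began 52 bases before the start.
Herpud1: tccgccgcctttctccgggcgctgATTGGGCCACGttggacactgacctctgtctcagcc

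The element that ATF4 and C/EBP proteins bind (CARE, searched as TGATGNAA on either strand) was present in 5 of 20 genes of the ATF4 arm with an entry, *Trib3*, *Chac1*, *Asns*, *Nupr1* and *Vldlr*, in *Herpud1* among the ER genes, and in 4.51% of all genes. The 5 genes had log2 fold changes from -0.16 to 0.08 with a median of -0.10, and the 15 without it had a median of 0.07. The medians were -0.15 against -0.07 under quantile normalization and -0.15 against -0.09 under cyclic loess. Under spike-in scaling they were -0.31 against -0.15, and with the brightest probe -0.10 against 0.0037. Among 334 measured genes outside the list that hold this element, 166 were above 0 and 168 below, with a median of -0.0046. Of the 5, 2 were above 0, but 1 under quantile normalization and 0 under cyclic loess and spike-in scaling. They are shown as the counterpart to the ER chaperones. *Asns* is at chr6:7693210-7693269 and *Nupr1* at chr7:126625547-126625606, both on the minus strand, and *Chac1* at chr2:119351023-119351082 and *Vldlr* at chr19:27216794-27216853 on the plus strand. Capitals mark the element, which reads TTGCATCA where it lies on the opposite strand. In *Trib3* it lies after the start and is not printed.
Asns: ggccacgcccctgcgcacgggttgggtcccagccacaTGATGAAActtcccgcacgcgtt
Chac1: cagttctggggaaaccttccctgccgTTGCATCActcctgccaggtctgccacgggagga
Nupr1: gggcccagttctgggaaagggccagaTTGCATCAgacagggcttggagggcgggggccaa
Vldlr: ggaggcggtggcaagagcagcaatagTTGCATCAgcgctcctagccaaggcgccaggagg

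The other genes of these pathways were set beside the members from 9 lists with 124 genes, of which 121 were measured on both arrays. Of these 70 were above 0 and 51 below, with a median of 0.05 that was -0.018 under cyclic loess, -0.025 under quantile normalization and -0.16 under spike-in scaling, none was 2-fold higher or lower, and 4 passed 1.5-fold. The other genes of the ER lay on both sides of 0. Of 18 other ER chaperones and folding enzymes 10 were above 0 and 8 below, with a median of 0.04. *Ero1lb*, which reoxidizes disulfide isomerases, passed 1.5-fold at 0.59 but was dim, with intensities of 46.7 and 61.6. At 1.2-fold, 4 genes of this list passed upwards and 0 downwards, and under quantile normalization 2 and 2. The 4 were *Ero1lb*, *Pdia5*, a disulfide isomerase, at 0.36, *Erp44*, which retains proteins in the early secretory pathway, at 0.28, and *Ero1l* at 0.26. The lowest was *Uggt1*, which marks unfolded glycoproteins, at -0.26. *P4hb*, a bright disulfide isomerase, had -0.16 from intensities of 31654 and 24739. All but *Ero1lb* were named after their values were seen. Of 14 other ERAD genes 8 were above 0, with a median of 0.10, and *Edem2*, a relative of *Edem1*, had -0.61 from intensities of 144 and 82.5. The 15 genes of the translocon and of vesicle transport had a median of 0.12.

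On the side of the integrated stress response, 24 other ATF4 targets had a median of 0.06, with 15 above 0 and 9 below. *Ddit4l*, a relative of *Ddit4*, passed 1.5-fold at 0.69, from intensities of 1532 and 2156. The 12 cytosolic tRNA synthetases had a median of 0.02, with 6 above and 6 below, and the 10 other eIF2alpha kinases and translation factors had 0.05. Of 9 other sensors and proteases of the unfolded protein response 7 were below 0, with a median of -0.11 and a lowest value of -0.17, and none passed 1.5-fold. The 2 above 0 were the furthest from it, *Bax* at 0.42 and *Bak1* at 0.41, which encode pore-forming proteins of apoptosis that also bind IRE1alpha and were named after their values were seen. This list was the only one of the 9 with a median below 0, and it stayed below 0 under each of the settings tried. Of the other 8 medians, 5 were below 0 under cyclic loess (the other ATF4 targets, the tRNA synthetases, the other ER chaperones, the translocon and the mitochondrial chaperones) and all 8 under spike-in scaling. In the other compartments, the 8 mitochondrial chaperones and proteases had a median of 0.05 and the 11 cytosolic heat shock genes 0.10. *Bag3*, a co-chaperone of chaperone-assisted autophagy in muscle, was lower past 1.5-fold at -0.62, from intensities of 23945 and 13672.

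**Figure D5:**
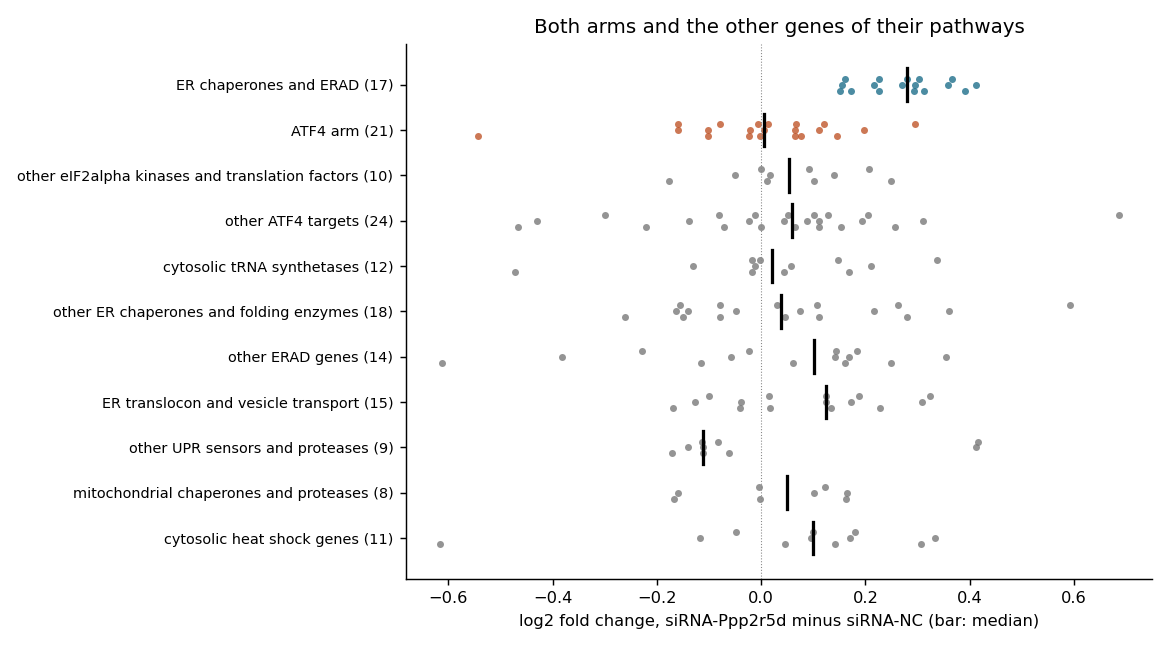
Log2 fold change of each gene of both arms and of the 9 lists of other pathway genes, with the number of genes in parentheses and the median of each list as a bar. The other ER chaperones and folding enzymes lie on both sides of 0 with a median of 0.04, whereas the 17 members of the ER arm all lie at 0.15 or higher (13 of 17 above 0 under spike-in scaling).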

How the data were processed

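RNA from the siRNA-NC culture and from the siRNA-*Ppp2r5d* culture was hybridized to 1 one-colour Agilent array each. The authors deposited the background-corrected intensity of every spot from Feature Extraction 10.7.1.1, not normalized between arrays, and a table of log2 values for 56605 probes, which matched a quantile normalization of the log2 intensities and was used as an alternative. Array coordinates are of build mm9.

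Control spots and spots marked as outliers (126 and 95) were left out, spots of a probe were averaged on the log2 scale, the 75th percentile was subtracted, and a gene was the mean over its probes well above background on both arrays. The groups came from the sample labels. With 1 array per condition no test was run, and the number of arrays limits the precision. A list was described by its counts and median beside those of all genes.

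The members and lists were chosen with earlier results of these data known. Named in full were members past 1.5-fold, the highest and lowest of each role, and members whose probes disagreed in sign by over 0.5, and in each pathway list at most 3 genes past 1.5-fold. Other members and genes were named after their values were seen. The gene step was tested on simulated data, which checks the arithmetic and not the calls between cultures. The alternatives were other scalings (quantile, the median of detected probes, cyclic loess, spike-in RNA), normexp correction with an offset of 50, a looser and a stricter filter, outlier spots kept in, the brightest probe in place of the mean over probes, and other thresholds. Promoters came from RefSeq and were matched by symbol. Software was limma 3.58.1 in R 4.3.3, and pandas 2.3.3, NumPy 2.4.6 and matplotlib 3.10.9 in Python 3.11.15.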

Additional observations from a re-analysis of the deposited data

How the results depend on the processing

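The counts of 0 members at least 2-fold higher and 0 lower held under each scaling, correction, filter and probe rule tried, and became 11 and 2 at 1.2-fold. The ATF4 median, 0.0060, was -0.075 under quantile normalization and in the authors' log2 values, -0.089 under cyclic loess and -0.21 with spike-in scaling. The ER median, 0.28, was 0.18 under quantile normalization, 0.19 under cyclic loess and in the table of log2 values, 0.068 when scaled to spike-in RNA and 0.24 with normexp correction, where the ATF4 median minus the ER median went from -0.27 to -0.24. The 10 ER genes at least 1.2-fold higher became 4 under quantile normalization, cyclic loess and the authors' log2 values, 6 with normexp correction and 0 with spike-in scaling. The cause was not tested. The 1.2-fold threshold, the brightest class of genes and the counts and medians of roles, lists and promoter elements under other settings were added after the data were seen. No paired analysis was possible because each condition has 1 array, and for the same reason no replicate could be left out. *Ern1*, a dim gene, went from -0.42 to -0.19 with normexp correction.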
